A study of Mus musculus with 2 samples.

Results

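The genes described here are 49 genes of DNA replication and mitosis, taken from a list that gives them by name and sets no limit on their measured values. All 49 were found among the 55416 genes of the count table. They were split by their main role into 26 S-phase members, whose products license, copy or repair DNA, and 23 G2/M members, whose products act as cells enter and leave mitosis. For 9 of them the phase is less certain, because the product acts in more than 1 phase (Mki67, Top2a, Cdk1, Ccna2, Foxm1, Exo1, Brca1, Brca2 and Chek1).

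Expression was measured by bulk RNA-seq in 2 murine rhabdoid tumors (RT), malignant tumors in which Smarcb1, part of the SWI/SNF remodeler of chromatin, is usually lost. Both arose in Dppa3-cre::Smarcb1 fl/+ mice, in which Cre recombinase is expressed from the Dppa3 locus in primordial germ cells and 1 Smarcb1 allele is floxed, so that loss of the remaining allele is left to chance. Tumor 1 was labelled intracranial (trigeminal nerve) and tumor 2 extracranial (facial, maxillar), and both were classified as MYC. Animal age was not given in the sources used here, normal tissue was not analysed here, and each library came from a frozen piece of tumor that also held nontumor cells. With 1 library per location there were no replicates, so every ratio here compares 2 libraries and not 2 locations. Whether more cells of a type or more RNA per cell lies behind a higher bulk level cannot be told apart.

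The libraries held 34545846 counts (intracranial) and 26915696 counts (extracranial), and 3 counts, taken as the floor, were worth 0.0863 and 0.112 CPM (counts scaled for depth, in the usual unit). The targeted gene Smarcb1 (ENSMUSG00000000902) was detected in both tumors. It had 365 counts or 10.5 CPM (95% interval 9.45 to 11.6) in the intracranial one and 530 counts or 19.8 CPM (18.2 to 21.6) in the extracranial one. Gene-level counts do not resolve the floxed exons. By staining, the paper reported that Smarcb1 protein was lost in a tumor beside the trigeminal nerve and in a maxillary tumor of this model. It did not state that these were the tumors sequenced here. Markers of some other cell types differed widely. Those of stratified epithelium summed to 19628 CPM in the library labelled intracranial against 7.21 CPM in the other, where Krt5, Krt15, Trp63, Dsg3 and Sprr1b were at 0. High epithelial markers thus stood in the tumor labelled as arising at the trigeminal nerve and not in the one labelled facial, and every direction given here rests on those labels. Schwann cell markers, of interest for a nerve site, summed to 241.5 and 249.9 CPM, with 7 of 10 lower and 3 higher in the extracranial tumor and Sox10 at 43 and 0 counts.

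DNA is copied once per cell cycle. In G1, the origin recognition complex with Cdc6 and Cdt1 loads the MCM helicase ring onto origins, and in S phase Cdc45 and the GINS complex switch the helicase on so that polymerases, clamped to DNA by PCNA, can follow. Cyclin B with Cdk1 then drives mitosis, in which kinetochores, motors and the spindle checkpoint sort the chromosomes until the ubiquitin ligase APC/C with Cdc20 starts anaphase. Transcription follows the same order. E2F factors act on many S-phase genes, while the CHR element, bound by the DREAM and MuvB complexes, and CCAAT boxes, bound by NF-Y, mark many G2/M genes. Genes of both phases are used as measures of proliferation in tumors.

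The phase split was visible in the promoter sequences, which the choice of members did not use. RefSeq windows from 250 bases before to 50 bases after the start site (build GRCm38.p6) were matched for 40 of the 49 members (22 S-phase and 18 G2/M). There was no window for Exo1, Mcm4, Gins1, Gins2, Kif20a, Tpx2, Aurkb, Foxm1 and Ccna2. Letters were searched on both strands for E2F (TTGGCGC or TTCCCGC), CHR (TTTGAA) and the CCAAT box (CCAAT), and a match is a description of letters, not of binding. E2F letters stood in 14 of 22 S-phase windows (63.6%) and in 3 of 18 G2/M windows (16.7%), those of Mki67, Cdk1 and Ccnb1. CHR letters showed the opposite pattern, with 13 of 18 G2/M windows (72.2%) against 2 of 22 S-phase windows (9.09%), those of Mcm2 and Cdc45. Of all 27025 windows, E2F letters stood in 6.93% and CHR letters in 18.1%.

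CCAAT letters separated the phases less. They stood in 16 of 22 S-phase windows (72.7%) and 16 of 18 G2/M windows (88.9%), against 37.9% of all windows. At least 2 CCAAT boxes were held by 8 S-phase windows (36.4%) and 11 G2/M windows (61.1%), against 12.2% of all windows. Each of the 13 G2/M windows with CHR letters also held a CCAAT box, and so did the 2 S-phase windows with CHR letters. This pair was found in 7.12% of all windows. E2F and CCAAT letters overlapped in 3 member windows. Windows of 10197 protein-coding genes with at least 100 counts over both libraries held E2F, CHR and CCAAT letters in 12.1%, 12.2% and 38.9%, respectively.

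**Figure D1:**
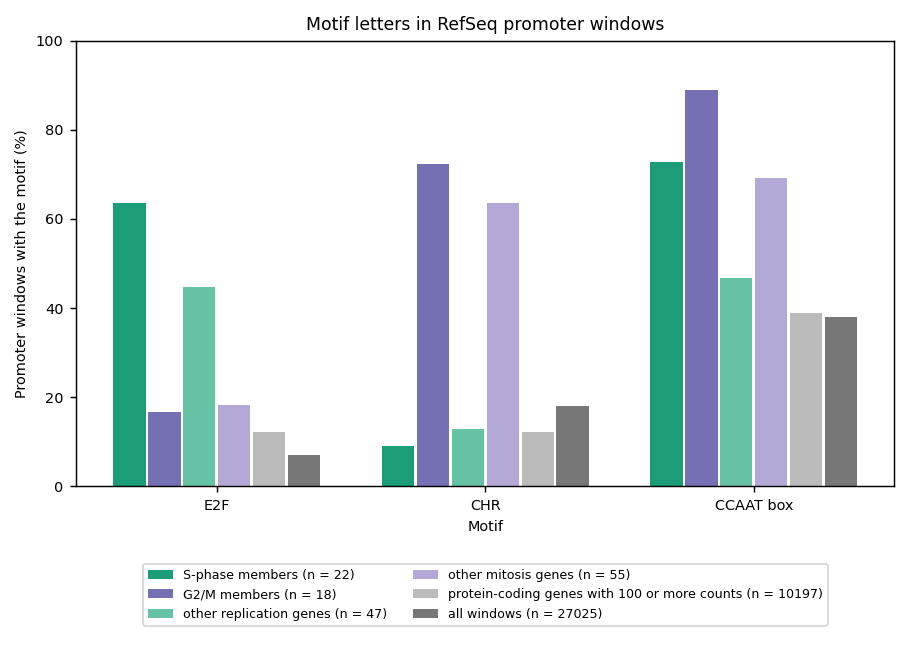
Share of promoter windows (%) that hold E2F, CHR or CCAAT box letters, by gene list, with the number of windows per list in the key. E2F letters are most frequent in S-phase members (63.6%) and CHR letters in G2/M members (72.2%), and the other replication genes (44.7% with E2F) and other mitosis genes (63.6% with CHR) show the same split.

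Promoters of 3 S-phase members with several E2F matches each are printed as examples. Mcm3, Mcm7 and Cdt1 also held several in their windows. Each stretch runs from 170 bases before to 30 bases after the start site, 5′ to 3′ on the gene's strand, with E2F letters of either strand in capitals. The genes are Mcm5 (ENSMUSG00000005410; chr8:75109339-75109538, plus strand) and Mcm6 (ENSMUSG00000026355; chr1:128359676-128359875, minus strand), subunits of the MCM ring, and Pola1 (ENSMUSG00000006678; chrX:93632126-93632325, minus strand), the catalytic subunit of the polymerase that starts new strands.
Mcm5: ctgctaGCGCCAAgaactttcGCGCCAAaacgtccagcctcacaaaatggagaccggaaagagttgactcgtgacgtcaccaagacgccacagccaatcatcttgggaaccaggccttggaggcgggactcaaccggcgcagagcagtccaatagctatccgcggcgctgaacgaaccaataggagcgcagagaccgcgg
Mcm6: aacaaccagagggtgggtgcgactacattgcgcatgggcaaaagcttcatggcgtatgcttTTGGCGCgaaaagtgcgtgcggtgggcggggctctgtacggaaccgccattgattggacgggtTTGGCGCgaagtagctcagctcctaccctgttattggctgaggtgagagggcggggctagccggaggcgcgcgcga
Pola1: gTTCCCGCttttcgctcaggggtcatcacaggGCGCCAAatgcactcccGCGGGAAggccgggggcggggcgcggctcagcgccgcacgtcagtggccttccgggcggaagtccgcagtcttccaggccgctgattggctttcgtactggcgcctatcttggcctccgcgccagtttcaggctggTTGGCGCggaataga
In Mcm5 the matches began 164 and 149 bases before the start site, and in Mcm6 109 and 46 bases before it. In Pola1 there were 3 matches before the start site, at 169, 138 and 121 bases, and 1 match after it.

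Promoters of 3 G2/M members are printed because each holds CHR letters beside CCAAT boxes, marked in capitals in the same way. The genes are Ccnb2 (ENSMUSG00000032218; chr9:70421525-70421724, minus strand), a B-type cyclin, Cdc20 (ENSMUSG00000006398; chr4:118437314-118437513, minus strand), the activator of APC/C, and Cdk1 (ENSMUSG00000019942; chr10:69352883-69353082, minus strand), the kinase that B-type cyclins activate.
Ccnb2: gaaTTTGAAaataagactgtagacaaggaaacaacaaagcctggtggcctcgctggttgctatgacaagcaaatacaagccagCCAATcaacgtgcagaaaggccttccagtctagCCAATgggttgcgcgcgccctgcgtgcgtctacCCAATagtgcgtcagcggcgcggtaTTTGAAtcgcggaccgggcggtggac
Cdc20: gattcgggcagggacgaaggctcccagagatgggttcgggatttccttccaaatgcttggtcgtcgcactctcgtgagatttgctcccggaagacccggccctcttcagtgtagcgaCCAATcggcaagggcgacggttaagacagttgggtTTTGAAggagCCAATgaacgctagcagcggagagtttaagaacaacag
Cdk1: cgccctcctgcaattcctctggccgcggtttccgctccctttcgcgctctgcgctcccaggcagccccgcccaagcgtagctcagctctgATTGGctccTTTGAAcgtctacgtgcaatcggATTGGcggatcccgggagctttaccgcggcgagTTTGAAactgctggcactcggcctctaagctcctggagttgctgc
In Cdc20 the CHR letters began 18 bases before the start site, with CCAAT boxes at 53 and 8 bases. In Cdk1 the CHR letters began 71 and 15 bases before the start site, with CCAAT boxes on the opposite strand at 80 and 48 bases. In Ccnb2 CCAAT boxes began 87, 54 and 21 bases before the start site, and CHR letters stood both far upstream, at 167 bases, and just after the start.

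All 49 members lay above the floor in both libraries. Ranked with all 24490 genes that exceeded the floor somewhere, their median CPM stood at percentiles 64.8 (intracranial) and 70.9 (extracranial), and the lowest member at percentiles 42.6 and 46.9. Per kilobase of exon, member levels ran from 0.523 to 45.6 CPM per kilobase (87.2-fold) and from 0.731 to 72.3 (98.9-fold). The length was that of all annotated exons of a gene merged, which can exceed the transcript expressed. On this scale levels of different genes therefore compare only roughly, while the change of 1 gene between libraries is not affected. Pcna, the sliding clamp, was the highest member in both libraries, with 3803 and 4643 counts. The lowest members in both were Exo1, a DNA exonuclease, and Brca2, a gene of homologous recombination. The order of the levels was much the same in both libraries (Spearman 0.973 over 49 members of the same 2 libraries, given as a description). Rrm2, the regulated subunit of ribonucleotide reductase, moved from rank 2 with 13.6 CPM per kilobase to rank 10 with 12.7. The 6 subunits of the MCM ring, Mcm2 to Mcm7, lay within 2.44-fold and 2.88-fold of each other on this scale.

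**Figure D2:**
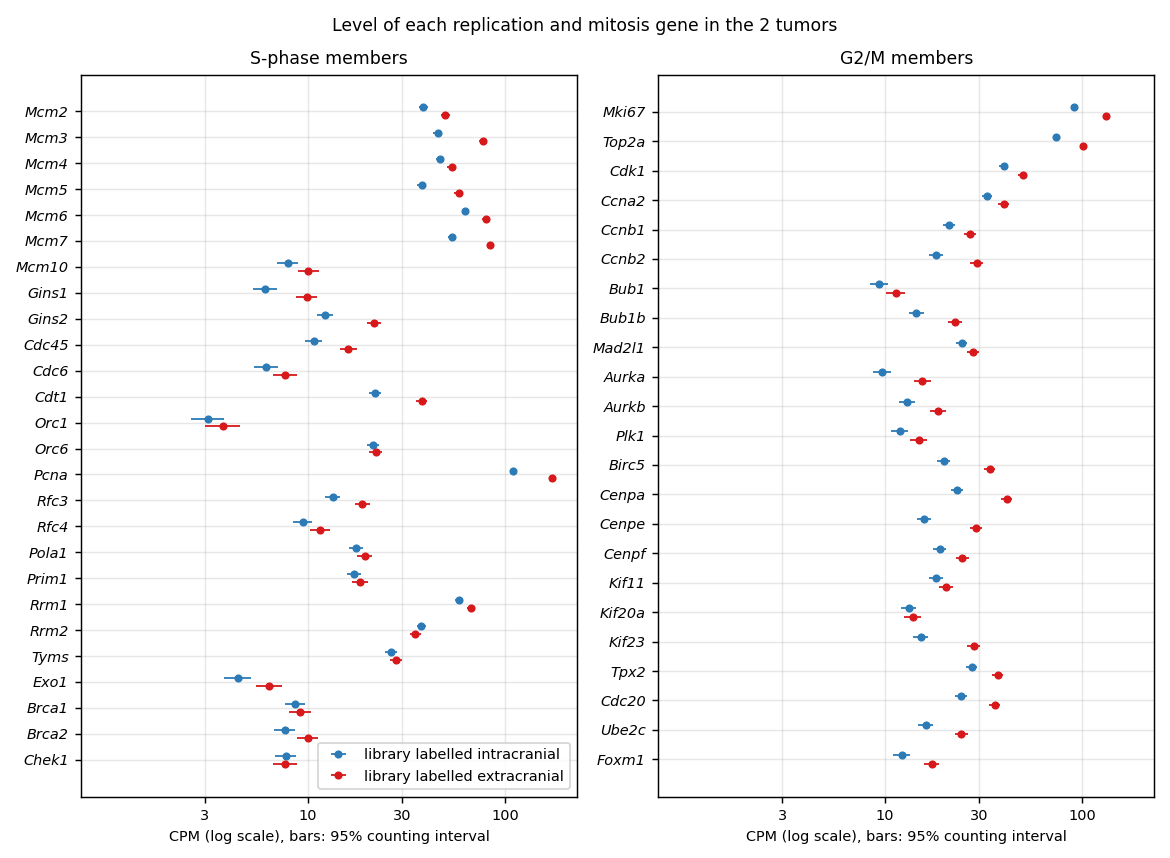
CPM (log scale) of each S-phase and G2/M member in both libraries, with bars for the 95% counting interval. Levels run from 3.11 CPM for Orc1 to 174 CPM for Pcna, and the points of the library labelled extracranial lie to the right for 47 of 49 members.

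The members were higher in the library labelled extracranial, by little and almost without exception. The ratio extracranial over intracranial was above 1 for 47 of 49 members, against 47% of the 21977 genes with at least 10 counts over both libraries. The whole 95% counting interval lay above an equal ratio for 40 members, against 29.2% of all tested genes, and for 0 members it lay below, against 32.2%. Among the 15582 genes with at least 100 counts, as all members had, these shares were 35.7% and 36%. These intervals cover counting error only, since 1 library per location gives no error between tumors. The reads carried no molecular identifiers and do not count molecules independently, so even for counting error the intervals may be too narrow. The median log2 ratio of the members was 0.39 (1.31-fold), with 25th and 75th percentiles of 0.25 and 0.65, against -0.04 over all tested genes and -0.01 over genes with at least 100 counts. The interquartile range of their log2 ratios was 0.40, against 0.68 across genes with at least 100 counts.

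The size of the difference stayed below 2-fold throughout. The interval lay beyond 2-fold for 0 members, against 5.86% of tested genes in the extracranial and 9.77% in the intracranial direction (6.21% and 9.58% of those with at least 100 counts), and beyond 1.5-fold for 8 members, against 9.99%. These 8 were Mcm3, Gins2, Cdt1 and Pcna of the S-phase members and Birc5, Cenpa, Cenpe and Kif23 of the G2/M members. Summed over members, the level was 1255 CPM (intracranial) and 1731 CPM (extracranial), a log2 ratio of 0.46 (95% interval 0.45 to 0.48).

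**Figure D3:**
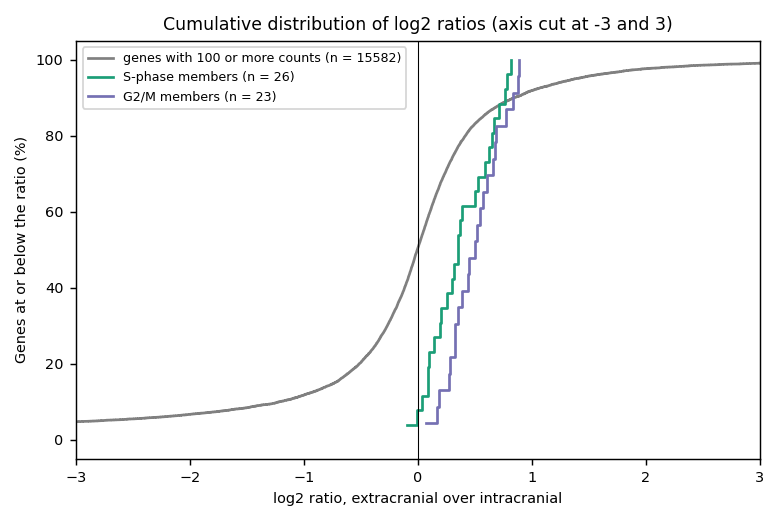
Cumulative share (%) of genes at or below each log2 ratio, extracranial over intracranial, for the 26 S-phase members, the 23 G2/M members and 15582 genes with at least 100 counts. The member curves start near 0 (lowest values -0.10 and 0.07) and end at 0.82 and 0.89, while the curve of all genes spreads far to both sides.

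Among S-phase members, the licensing factors were higher in the library labelled extracranial for 8 of 10 genes beyond counting error (median log2 ratio 0.36). Cdt1, the MCM loader that geminin restrains, had 21.9 and 37.7 CPM, a log2 ratio of 0.78 (0.64 to 0.92). Its partner Cdc6 had 6.13 and 7.62 CPM, a log2 ratio of 0.31 (0.03 to 0.60). The ratio of Cdt1 to Cdc6 per kilobase was thus 5.96 in 1 library and 8.24 in the other, a difference of 0.47 on the log2 scale (0.15 to 0.78). For the origin recognition subunits the intervals spanned an equal ratio. Orc1 had 3.11 and 3.70 CPM, a log2 ratio of 0.25 (-0.16 to 0.66), and it overlaps Gm12743 (27 and 20 counts) over 10.8% of its exon sequence. Orc6 had 21.4 and 22 CPM, a log2 ratio of 0.04 (-0.12 to 0.20).

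The 6 MCM subunits, which form 1 ring with a single copy of each, were all higher beyond counting error but by unequal amounts. Mcm3 differed most, with 45.4 and 77.2 CPM and a log2 ratio of 0.77 (0.67 to 0.86). Mcm7 followed with 53.5 and 84.2 CPM and 0.65 (0.56 to 0.74), and Mcm5 with 37.8 and 58.0 CPM and 0.62 (0.51 to 0.73). The other subunits moved less. Mcm2 had 38.5 and 49.7 CPM with a log2 ratio of 0.37 (0.26 to 0.48), and Mcm6 had 62.9 and 79.9 CPM with 0.35 (0.26 to 0.43). Mcm4 had 46.9 and 53.7 CPM and the smallest ratio of the ring at 0.19 (0.09 to 0.30), so the intervals of Mcm3 and Mcm4 did not meet.

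The factors that switch the helicase on formed the S-phase role with the highest median log2 ratio (0.65), and all 4 were higher beyond counting error. Gins2, a GINS subunit, had 12.2 and 21.6 CPM, the largest S-phase log2 ratio at 0.82 (0.63 to 1.0). Over 67.3% of its exon sequence it overlaps Gse1 on the opposite strand, and the log2 ratio of Gse1 itself was -0.01 (-0.29 to 0.27), from 250 and 191 counts. Gins1, another subunit of that complex, had 6.04 and 9.87 CPM and a log2 ratio of 0.71 (0.44 to 0.98). Cdc45, which joins MCM and GINS in the active helicase, had 10.7 and 16 CPM with a log2 ratio of 0.59 (0.38 to 0.79). Mcm10, needed to activate the loaded helicase, had 7.89 and 10.1 CPM with 0.35 (0.10 to 0.60).

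Of the DNA synthesis genes, 3 of 5 were higher beyond counting error. The clamp Pcna had 109 CPM (106 to 113) and 174 CPM (169 to 179), a log2 ratio of 0.66 (0.60 to 0.73). Its loaders were also higher in the library labelled extracranial. Rfc3 had 13.3 and 18.8 CPM with a log2 ratio of 0.50 (0.31 to 0.68), and Rfc4 had 9.38 and 11.5 CPM with 0.29 (0.07 to 0.52). Over 12.7% of its exon sequence Rfc4 overlaps the more abundant Eif4a2, with 7003 and 6473 counts and 0.26 (0.21 to 0.31). For the primase and its polymerase the intervals spanned an equal ratio and overlapped that of Rfc4. Pola1 had 17.6 and 19.4 CPM with a log2 ratio of 0.14 (-0.03 to 0.31). Prim1, the catalytic primase subunit, had 17.2 and 18.4 CPM with 0.10 (-0.08 to 0.27). Pcna reads may be shared with annotated pseudogenes of near-identical sequence, as may those of Tyms, Ccnb1 and Ccnb2.

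Nucleotide supply was the S-phase role with the lowest median log2 ratio (0.09). Rrm2 was the only member of this role below an equal ratio, with 37.6 and 35.1 CPM and a log2 ratio of -0.10 (-0.22 to 0.02). Rrm1, the large subunit of the same enzyme, had 58.2 and 66.9 CPM and 0.20 (0.11 to 0.29). Relative to Rrm2, Rrm1 was therefore higher in the library labelled extracranial by 0.30 on the log2 scale (0.15 to 0.45). Tyms, thymidylate synthase, had 26.4 and 28.1 CPM with a log2 ratio of 0.09 (-0.05 to 0.23).

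Repair and checkpoint genes were low and less precise. Exo1 had 4.40 and 6.35 CPM with a log2 ratio of 0.53 (0.21 to 0.85), and Brca2 had 7.63 and 9.98 CPM with 0.39 (0.14 to 0.64). Both were higher beyond counting error. Brca1, which acts before Brca2 in homologous recombination, had 8.63 and 9.16 CPM with 0.08 (-0.16 to 0.33). Chek1, the kinase that holds cells with damaged or unfinished DNA, had 7.71 and 7.66 CPM with -0.01 (-0.28 to 0.26). At this depth no difference was detectable for these last 2 genes.

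**Figure D4:**
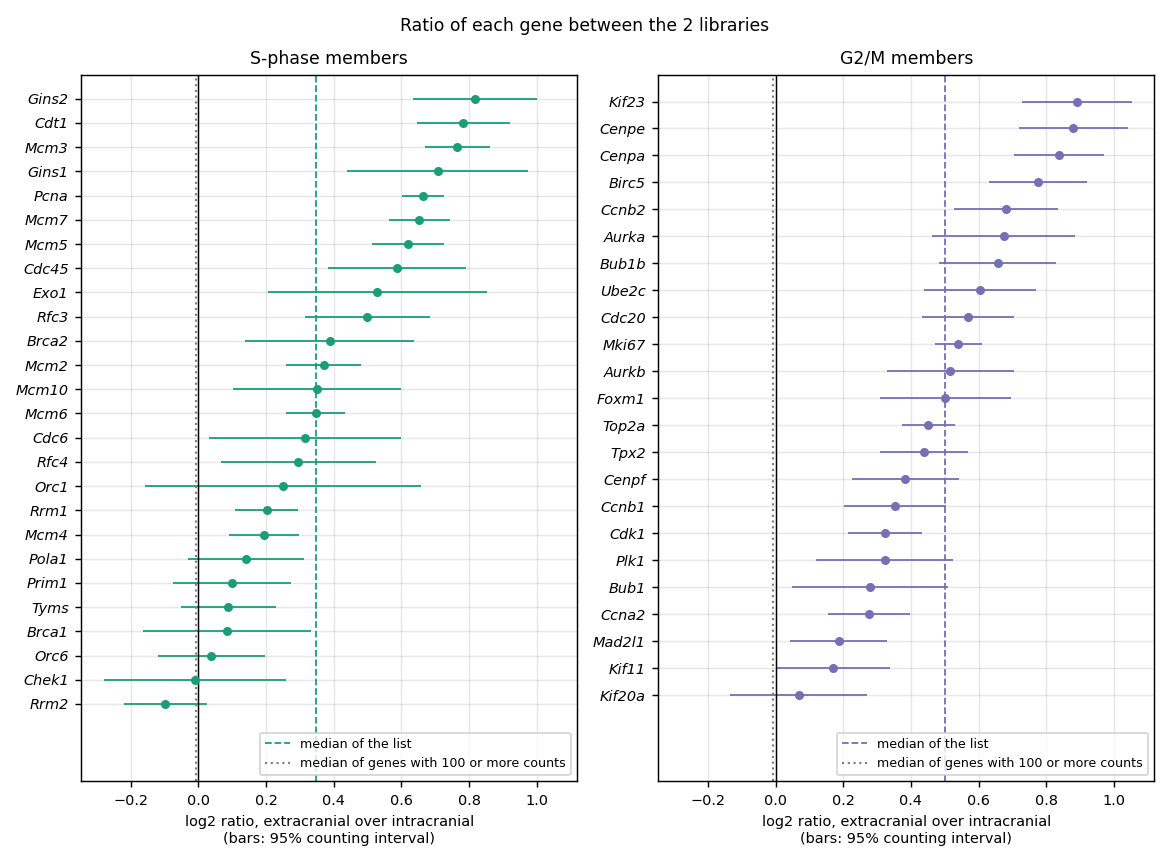
Log2 ratio extracranial over intracranial of each S-phase and G2/M member, in order of size, with bars for the 95% counting interval, a dashed line at the median of the list (0.35 and 0.50) and a dotted line at the median of genes with at least 100 counts. The interval spans an equal ratio for 8 S-phase members and for Kif20a alone among the G2/M members.

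The G2/M members were higher in the library labelled extracranial in 22 of 23 cases beyond counting error. The genes for cyclins, their kinase and their regulator were all higher (5 of 5, median log2 ratio 0.35). Cdk1 had 39.9 and 49.9 CPM with a log2 ratio of 0.32 (0.21 to 0.43), and Ccna2, cyclin A2, had 32.9 and 39.9 CPM with 0.28 (0.15 to 0.40). Ccna2 overlaps Exosc9 (757 and 615 counts) over 12.5% of its exon sequence. The B-type cyclins differed from each other. Ccnb1 had 21.1 and 26.9 CPM with 0.35 (0.20 to 0.50), and Ccnb2 had 18.2 and 29.1 CPM with 0.68 (0.53 to 0.83). The ratio of Ccnb2 to Ccnb1 per kilobase was 2.37 and 2.98, a difference of 0.33 on the log2 scale (0.11 to 0.54). Foxm1, a transcription factor of G2/M genes, had 12.1 and 17.2 CPM with 0.50 (0.31 to 0.70).

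Mitotic kinases and the passenger protein survivin had a median log2 ratio of 0.60, with 4 of 4 higher beyond counting error. Birc5, which encodes survivin, had 19.9 and 34.0 CPM with a log2 ratio of 0.78 (0.63 to 0.92). Aurkb, the kinase of the same passenger complex, had 13 and 18.6 CPM with 0.52 (0.33 to 0.70). Its relative Aurka, which acts at spindle poles, had 9.67 and 15.4 CPM with 0.67 (0.46 to 0.89), and the Aurkb to Aurka ratio differed by -0.16 (-0.44 to 0.13), an interval that spans 0. Plk1, polo-like kinase, had 11.8 and 14.8 CPM with 0.32 (0.12 to 0.53).

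The centromere genes were the role with the highest median log2 ratio of all (0.84). Cenpa, the histone H3 variant that marks centromeres, had 23.1 and 41.3 CPM with a log2 ratio of 0.84 (0.70 to 0.97). Cenpe, a kinetochore motor, had 15.7 and 28.9 CPM with 0.88 (0.72 to 1.04). Cenpf, a kinetochore protein made in G2, had 18.9 and 24.7 CPM with 0.38 (0.23 to 0.54), so its interval lay below those of the other centromere genes. The spindle checkpoint genes had a median of 0.28, and 3 of 3 were higher beyond counting error. Bub1b had 14.4 and 22.7 CPM with 0.66 (0.48 to 0.83), while its kinase relative Bub1 had 9.32 and 11.3 CPM with 0.28 (0.05 to 0.51). Mad2l1, which holds Cdc20 in check, had 24.5 and 27.8 CPM with 0.19 (0.04 to 0.33).

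Motors and spindle proteins held both ends of the G2/M range. Kif23, a central spindle motor of cytokinesis, had 527 and 752 counts, 15.2 and 28.1 CPM, and the largest log2 ratio of any member at 0.89 (0.73 to 1.05). Kif20a, another motor of cytokinesis, had 13.2 and 13.8 CPM and the smallest of the G2/M members at 0.07 (-0.13 to 0.27). The Kif23 to Kif20a ratio per kilobase was 0.633 (intracranial) and 1.12 (extracranial), a difference of 0.82 on the log2 scale (0.56 to 1.08). Over 29.3% of its exon sequence Kif20a overlaps Cdc23, which had 962 and 700 counts. Kif11, the motor that pushes spindle poles apart, had 18.1 and 20.4 CPM with 0.17 and a lower interval bound of 0.0019. Tpx2, a spindle assembly factor, had 27.4 and 37.2 CPM with 0.44 (0.31 to 0.57).

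The last G2/M roles covered exit from mitosis and chromosome structure. Cdc20 had 24.3 and 36.1 CPM with a log2 ratio of 0.57 (0.43 to 0.70), and Ube2c, the ubiquitin-conjugating enzyme of APC/C, had 16 and 24.4 CPM with 0.60 (0.44 to 0.77). Ube2c overlaps Tnnc2, at 0 counts in both libraries, over 22.8% of its exon sequence. Mki67, which encodes the proliferation marker Ki67, had 90.6 CPM (87.5 to 93.8) and 132 CPM (127 to 136), a log2 ratio of 0.54 (0.47 to 0.61). Top2a, the topoisomerase that untangles chromosomes, had 73.7 and 101 CPM with 0.45 (0.37 to 0.53). Relative to Mki67, Pcna was higher in the library labelled extracranial by 0.12 on the log2 scale (0.03 to 0.22).

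Compared as lists, G2/M members had the higher median, and no error of this difference was estimated. The median log2 ratio was 0.35 for S-phase members (25th and 75th percentiles 0.15 and 0.61) and 0.50 for G2/M members (0.32 and 0.67), a difference of -0.15. The counting intervals of the middle genes, combined around this difference, ran from -0.41 to 0.10. They hold the error of those genes only, not that of a median over a list or the spread between genes. Beyond counting error, 18 of 26 S-phase and 22 of 23 G2/M members were higher in the library labelled extracranial, and 4 members of each list lay beyond 1.5-fold. Within each list the ratios were not all alike. Of the S-phase members, 8 had an interval above the list's own median and 9 below it, and of the G2/M members 5 lay above and 5 below. Of genes with at least 100 counts, whose median was -0.01, 35.7% lay above and 36% below an equal ratio. Such a spread was therefore not particular to the members. The S-phase genes above were Mcm3, Mcm5, Mcm7, Gins1, Gins2, Cdc45, Cdt1 and Pcna. Those below were Mcm4, Orc6, Pola1, Prim1, Rrm1, Rrm2, Tyms, Brca1 and Chek1.

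As a share of the members' own counts, which no scaling touches, the balance of the phases was almost the same in both libraries. S-phase members took 24037 counts against 19561 for G2/M members in the library labelled intracranial, a share of 55.1% (exact interval 54.7% to 55.6%). In the library labelled extracranial they took 25051 against 21273, a share of 54.1% (53.6% to 54.5%). The log2 odds ratio of -0.06 (-0.10 to -0.02) was small. It became -0.11 without Pcna, the member with the most counts, and -0.04 without Rrm2. When the other replication and mitosis genes were counted as well it was 0.01 (-0.01 to 0.03), and for those other genes alone 0.02 (-0.01 to 0.05), so that no shift was detectable over the wider lists. The counts of Mcm2 to Mcm7 against those of the B-type cyclins differed by -0.01 (-0.13 to 0.10).

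The other genes of both processes were taken from lists of 60 replication and 63 mitosis genes. Of the replication genes, 33 were higher in the library labelled extracranial beyond counting error and 10 were lower, with a median log2 ratio of 0.19. Of the mitosis genes, 45 were higher and 5 lower, with a median of 0.45. Over all tested genes, 29.2% were higher and 32.2% lower, and over those with at least 100 counts 35.7% and 36%. The medians of both lists stood below those of the members of the same phase, and unlike the members, both lists held genes that were higher in the library labelled intracranial. E2f8, an atypical E2F factor that represses transcription, had 9.12 and 33.0 CPM and the largest log2 ratio of the replication list at 1.85 (1.67 to 2.04). It was followed by the nuclease gene Dna2 at 0.80 (0.58 to 1.02) and by Ccne1, cyclin E1, at 0.80 (0.54 to 1.06).

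Several partners of members were higher in the intracranial tumor. Orc5, an origin recognition subunit, had 27.7 and 17.8 CPM with a log2 ratio of -0.64 (-0.80 to -0.48). Prim2, the primase subunit that works with Prim1, had 43.3 and 28.4 CPM with -0.61 (-0.74 to -0.48), and Gins3, which shares a complex with Gins1 and Gins2, had 8.43 and 5.61 CPM with -0.59 (-0.88 to -0.30). All of these intervals lay below an equal ratio. In the mitosis list, the kinetochore genes Spc24 at 1.02 (0.82 to 1.22) and Ndc80 at 0.94 (0.72 to 1.16) and the condensin gene Ncaph at 0.93 (0.75 to 1.11) led. At the other end, Cdc25b, a phosphatase that activates Cdk1, had 83.6 and 16.4 CPM with -2.35 (-2.50 to -2.21). Hjurp, the chaperone of Cenpa, had 96.7 and 67.4 CPM with -0.52 (-0.60 to -0.44), and Prc1, a central spindle protein, had 21.9 and 17.4 CPM with -0.33 (-0.50 to -0.16).

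The listed genes of complexes known to bind such elements had no common direction. Foxm1 and further E2F factors, among them E2f8, were counted in other lists and not here. Of the 15 found of 16 genes of the E2F, DREAM, MuvB and NF-Y complexes, 6 were higher in the library labelled extracranial beyond counting error and 5 lower. Their median log2 ratio was 0.05. Of genes with at least 100 counts, 35.7% were higher and 36% lower, so this mix was not particular to the regulators. Mybl1, a MYB factor, was the only one beyond 2-fold, with 16.4 and 6.09 CPM and a log2 ratio of -1.43 (-1.69 to -1.17). Lin9 at 0.45 (0.23 to 0.67), Tfdp2 at 0.34 (0.15 to 0.53) and Rbl1 at 0.28 (0.11 to 0.44) were the highest. Lin52 at -0.33 (-0.63 to -0.03) and Nfyb at -0.27 (-0.43 to -0.12) were the lowest after Mybl1.

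**Figure D5:**
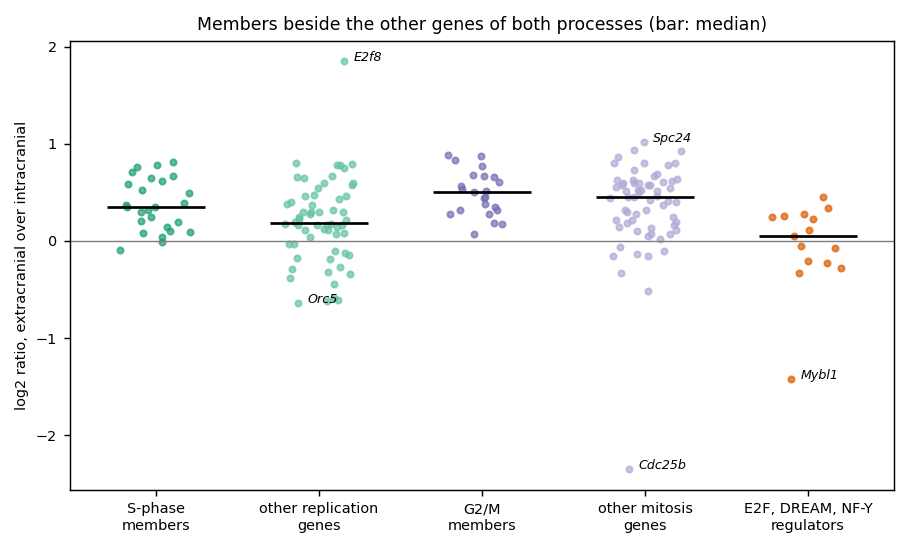
Log2 ratio extracranial over intracranial of every gene in the member lists, in the 60 other replication genes, the 63 other mitosis genes and 15 regulators, with a bar at each median. The members lie between -0.10 and 0.89, whereas the other lists reach from -2.35 for Cdc25b to 1.85 for E2f8.

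Markers of other cell types also differed between the libraries, and their part in the member ratios was not tested. Macrophage markers summed to 5874 CPM (intracranial) and 13176 CPM (extracranial), with 10 of 10 higher in the latter, and endothelial markers to 227.7 and 418.5 CPM, also with 10 of 10 higher. T cell markers summed to 26.9 and 54.6 CPM. Of these 10, 9 had a ratio above 1, but only 6 were higher beyond counting error and 1 was lower. B and plasma cell markers summed to 19.7 and 333.8 CPM, most of it from Ighm in both libraries (13.2 and 301.5 CPM). Of 8 tested B and plasma cell markers, 6 were higher beyond counting error. Neutrophil markers went the other way, like those of stratified epithelium, with 1059 against 149.5 CPM. Of 8 tested neutrophil markers 7 were lower in the extracranial tumor, where Retnlg and Ngp were at 0. The exception, named after its values were seen, was Csf3r with 19.9 and 57.6 CPM. Erythroid markers summed to 41.3 and 106.7 CPM, with Slc4a1 at 0 in both.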

How the data were processed

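The deposited table gave raw read counts per Ensembl gene, made by the authors from poly(A) RNA, directional libraries and single reads. Per the submitters' processing notes, the tools were FastQC 0.11.9, MultiQC 1.11, STAR 2.7.9a and featureCounts, with build GRCm39. The strand setting and the treatment of multi-mapping reads were not given in the sources used here, so counts of overlapping genes and pseudogenes are uncertain. Of the members, 6 share over 10% of their exon sequence with another gene.

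Samples were grouped by the localization label. Exon lengths (all annotated exons of a gene, merged) and overlaps came from GENCODE mouse release M21. Symbols came from a separate list of gene names, and promoters from RefSeq. No annotation of build GRCm39 was used, so lengths and overlap shares may differ from those behind the counts. Library sizes were scaled by TMM in edgeR 4.0.16 (R 4.3.3; factors 1.006 and 0.994). Levels carry exact Clopper-Pearson intervals and ratios conditional exact binomial intervals (95%, scipy 1.17.1), over genes with 10 or more counts in both libraries together. No test between locations was possible with 1 library each, and no p-value is given. The interval procedure was run on simulated counts drawn independently, which is what the intervals assume. That run could not show how the intervals perform on these reads. The members and lists were chosen with earlier results of these data known, and the gene pairs whose ratios are compared were picked after their values were seen. Named were all members, the 3 genes with the highest and the 3 with the lowest log2 ratio of each other list (100 or more counts), and markers at or below 3 counts or with the most counts. Genes that overlap a named member were added. Alternatives were scaling by DESeq2 1.42.0 size factors, by total counts or by the upper quartile, other count minimums, per-kilobase levels and other member sets.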

Additional observations from a re-analysis of the deposited data

How the results depend on the processing

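No paired analysis was possible because a single library stood for each location, and for the same reason no library could be left out in turn. Of the alternative values, 39 stayed within the counting interval of the reported value or within 1.5 times a reported count, 5 moved and 1 reversed in sign. For medians that interval was the one of the middle genes. Other count minimums could not change the members' medians, because every member passed them. The median log2 ratio ran from 0.33 to 0.39 for S-phase members and from 0.48 to 0.54 for G2/M members, and members higher beyond counting error numbered 39 to 41. The log2 odds ratio of the S-phase share changed sign to 0.0086 with the other replication and mitosis genes added, with an interval that spanned 0 (-0.01 to 0.03). It moved from -0.06 to -0.11 without Pcna. For the other lists alone it was 0.02, and -0.11 once Cdc25b and Hjurp were left out. Both omissions were chosen after seeing the data. The difference of the medians stayed negative, from -0.15 as reported to -0.26 for the other lists alone. The log2 ratios of the summed CPM of each list differed by -0.06. That is not a median but nearly the same quantity as the log2 odds ratio of the S-phase share. With a limit of 1.5-fold in place of 2-fold, 8 members passed in place of 0. Among protein-coding genes alone, the members' median percentile was 53.3 and 61.7, lower by construction because fewer low genes were ranked. Scaling shifted every log2 ratio by at most 0.04. For Orc1, with 108 and 99 counts, depth limits the ratio most.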
